A study of Mus musculus with 384 samples.

Results

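The machinery through which RIPK1 relays TNF signals to survival or to death of the cell was followed in 10 genes, chosen by name, of the 23420 in the table. They are the TNF receptor genes Tnfrsf1a and Tnfrsf1b, the kinase genes Ripk1, Ripk3 and Tbk1, the necroptosis effector Mlkl, the protease gene Casp8 with its regulator Cflar, the ubiquitin ligase gene Birc3 and the deubiquitinase gene Cyld. Their level and detection were measured in 326 cells from the spinal cord of mice, all labelled Optn KO, a knockout of the gene for optineurin, a ubiquitin-binding autophagy receptor. Spinal cords were dissociated with Accutase, myelin was spun out, and cells stained for CD45, CD11b and CX3CR1 were sorted singly into plates. Libraries were made by SmartSeq2, which copies whole transcripts and carries no molecular identifiers, so each cell is a library of its own. Plates 1 and 2 are labelled Optn KO-1 (replicate 1, 154 cells) and plates 3 and 4 Optn KO-2 (replicate 2, 172 cells), and the labels do not say whether these replicates are separate mice. The p-values below therefore measure only the spread between these samples, largely pooled over genes, and it may be technical. The labels give no strain, sex or age either. Every cell carries the knockout label and no cells without it were analysed here, so nothing below is an effect of the knockout.

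Cells with at least 10000 TPM of S100a8 plus S100a9, 2 abundant calcium-binding proteins of neutrophils, were taken as neutrophils, and the remaining cells are called other cells. TPM is the share of a cell's transcripts, corrected for transcript length and scaled to a fixed total. This gave 286 neutrophils (131 in replicate 1, 155 in replicate 2) and 40 other cells (23 and 17). The 2 lowest neutrophils had 12512 and 13435 TPM of S100a8 plus S100a9 and the 2 highest other cells 4019 and 3063 TPM. Within each plate, neutrophils were divided into 3 classes of equal size by the mean log2(TPM + 1) of the specific granule genes Ltf, Camp, Ngp, Lcn2, Chil3 and Cd177, giving 97 granule-low, 95 granule-middle and 94 granule-high cells. Granule genes are made while neutrophils mature in the bone marrow and decline afterwards.

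The series' title calls the sorted cells microglia, but 0 of the 326 cells had 3 or more of 13 microglial markers above 0. In the neutrophils, Sall1, C1qa, C1qc, Trem2, Gpr34, Fcrls and Slc2a5 were listed at 0 in every cell. The other cells are a mixed group: of the 40, 30 had 3 or more of 10 monocyte markers above 0 and 32 had 3 or more of 9 neutrophil markers, the latter summing to 2554 and 2287 TPM in replicates 1 and 2 against 232393 and 227349 TPM in neutrophils. They also differed between replicates, with T or NK cell markers summing to 116 and 3416 TPM and B cell markers to 1143 and 0 TPM. Optn itself was listed at 0 in all 286 neutrophils and all 40 other cells, which by the limit for a count of 0 used here (3 cells of the total) allows a value above 0 in up to 1.05% and 7.5% of them. Exact upper ends for the same counts are 1.28% and 8.81%. Such limits concern cells with a value above 0, and not cells that hold the transcript. Depth is not kept in TPM, and the number of genes above 0 stands in for it: its median was 1371 in granule-low, 1608 in granule-middle and 2094.5 in granule-high neutrophils and 3027.5 in other cells. At least 4 of 16 proliferation genes were above 0 in 6 granule-low, 3 granule-middle, 22 granule-high and 14 other cells. The summed TPM of 10 immediate early genes, which respond to stimulation and to tissue dissociation, was 32992 and 41198 in granule-low cells of replicates 1 and 2, 4088 and 4529 in granule-high cells, and 17162 and 18476 in other cells. The part of depth, cycling and immediate early response in the differences below was not tested, except where a value without those cells is given.

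When TNF binds its receptor TNFR1, the adaptor TRADD and the kinase RIPK1 assemble a complex in which ubiquitin chains are added by ligases such as cIAP2 and removed by deubiquitinases such as CYLD. While the chains hold, the complex signals for survival and inflammatory transcription, and TBK1 is among the kinases that keep RIPK1 inactive. When they are lost, RIPK1 can join FADD, caspase-8 and FLIP in a complex that leads to apoptosis, and where caspase-8 is blocked it can engage RIPK3, which phosphorylates MLKL so that the membrane is ruptured in necroptosis.

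Tnfrsf1a, which encodes TNFR1, the receptor with a death domain, had the highest mean TPM of the 10 genes in every class of cells. It was above 0 in 240 of 286 neutrophils, 83.9% (exact 95% binomial interval 79.1 to 88.0, counting error only, as for all such intervals here), and in 30 of 40 other cells. Its mean was 668 TPM in replicate 1 and 745 TPM in replicate 2 in granule-low neutrophils, 369 and 400.0 TPM in granule-middle neutrophils, and 174 and 170.3 TPM in granule-high neutrophils. In other cells it was 334 and 372 TPM. The level thus stepped down from granule-low through middle to high cells in both replicates, with no overlap among the 4 plates of each class. The share of cells above 0 did not follow: it was 85.6% in granule-low and 81.9% in granule-high cells. Among cells above 0, the lowest, median and highest values were 2.48, 686 and 2885 TPM in granule-low and 0.4, 193 and 788 TPM in granule-high cells.

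Tnfrsf1b encodes TNFR2, a TNF receptor without a death domain that recruits TRAF2. It was above 0 in 81 of 286 neutrophils and in 31 of 40 other cells. Its mean was 124 and 163 TPM in granule-low neutrophils of replicates 1 and 2, 24.5 and 32.8 TPM in granule-middle, and 5.91 and 10.6 TPM in granule-high cells. In other cells it was 193 and 189.5 TPM. Here the share of cells followed the level: 50 of 97 granule-low cells were above 0, against 19 of 95 granule-middle and 12 of 94 granule-high cells, with medians among those cells of 249, 103 and 51.8 TPM. The 4 plates of granule-low cells, at 93.5 to 233 TPM, lay above all 4 plates of granule-high cells, at 3.55 to 16.3 TPM. Both receptors were above 0 in the same cell in 42 granule-low, 18 granule-middle and 12 granule-high neutrophils and 26 other cells, so all 12 granule-high cells with Tnfrsf1b also had Tnfrsf1a.

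**Figure D1:**
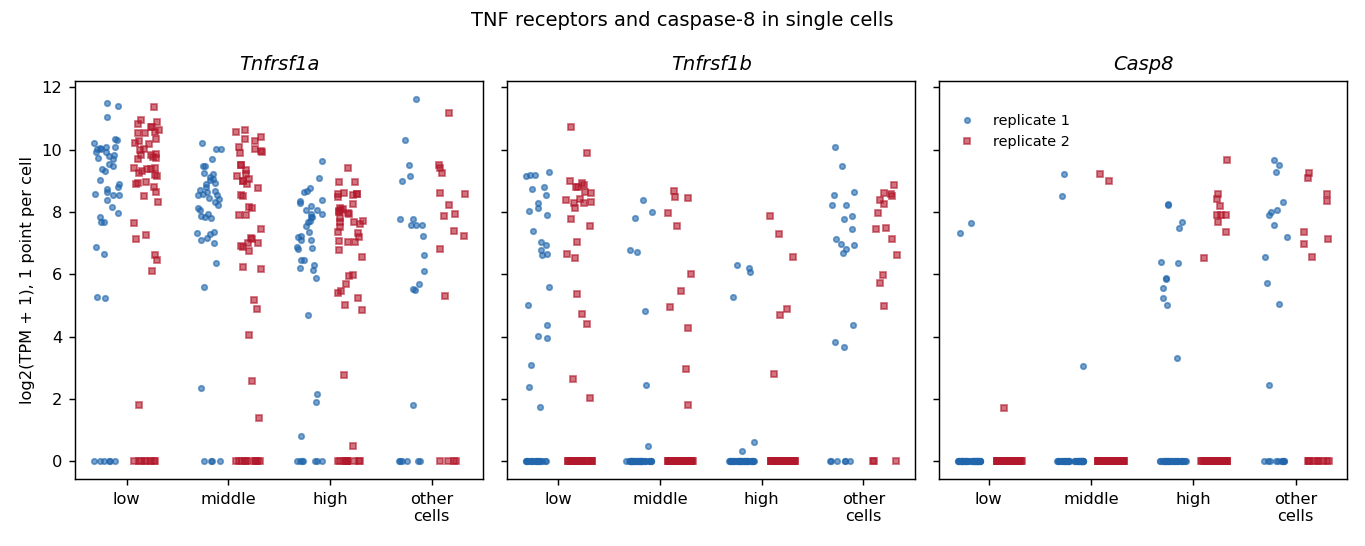
Each point is a cell, with log2(TPM + 1) of Tnfrsf1a, Tnfrsf1b and Casp8 on the vertical axis and the granule-low, granule-middle and granule-high neutrophils and the other cells along the horizontal axis; circles are replicate 1 and squares replicate 2. Tnfrsf1a shifts down in cells above 0 with rising granule level, Tnfrsf1b leaves most cells, and Casp8 is above 0 in 3 granule-low, 22 granule-high and 21 other cells.

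The promoters of the 3 genes drawn above are shown for their differences with granule level, a choice made from the same values and no test. They are the RefSeq windows from 250 bases before to 50 bases after the annotated start (GRCm38.p6), read 5′ to 3′ on the gene's strand, at chr6:125349473-125349772 (plus strand) for Tnfrsf1a, chr4:145246821-145247120 (minus strand) for Tnfrsf1b and chr1:58802252-58802551 (plus strand) for Casp8. Capitals mark a match to GAGGAA or its reverse complement, a longer word around GGAA, the core bound by ETS factors such as PU.1. GGAA alone was not searched for, and its other occurrences in the windows are not marked.
Tnfrsf1a: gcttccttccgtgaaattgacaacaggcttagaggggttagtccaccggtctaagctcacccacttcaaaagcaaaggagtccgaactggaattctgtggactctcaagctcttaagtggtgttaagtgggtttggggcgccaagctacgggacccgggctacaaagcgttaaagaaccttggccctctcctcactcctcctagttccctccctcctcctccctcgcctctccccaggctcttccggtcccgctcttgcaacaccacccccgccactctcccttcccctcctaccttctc
Tnfrsf1b: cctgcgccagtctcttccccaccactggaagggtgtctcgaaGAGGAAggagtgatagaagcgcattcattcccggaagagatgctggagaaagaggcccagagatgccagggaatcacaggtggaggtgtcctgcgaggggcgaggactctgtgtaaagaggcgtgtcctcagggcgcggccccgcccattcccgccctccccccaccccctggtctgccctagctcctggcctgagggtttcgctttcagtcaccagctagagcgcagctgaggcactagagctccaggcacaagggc
Casp8: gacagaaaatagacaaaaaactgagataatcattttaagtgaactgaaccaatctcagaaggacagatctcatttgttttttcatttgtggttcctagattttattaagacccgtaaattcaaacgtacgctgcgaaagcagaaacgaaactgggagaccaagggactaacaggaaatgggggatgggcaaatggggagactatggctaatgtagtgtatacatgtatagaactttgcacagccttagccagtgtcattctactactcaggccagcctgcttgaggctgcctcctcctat
The 300-base windows were also searched on both strands for TTGCNNAA (C/EBP) and TGANTCA (AP-1), and none of the 3 printed windows held a match. All 10 genes were found in the RefSeq table, with 11 windows between them. GAGGAA was in a window of 4 genes (Ripk1, Tnfrsf1b, Birc3 and Cyld), C/EBP in Cflar, and AP-1 in 0 of the 10. Of 32851 promoter windows searched, 28.3% held GAGGAA, 10.8% the C/EBP motif and 7.81% the AP-1 motif. The matches are letters in these windows and say nothing of binding.

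Ripk1, which encodes the kinase and scaffold of the receptor complex, was sparse. It was above 0 in 26 of 286 neutrophils, 9.09% (interval 6.02 to 13.04), and in 10 of 40 other cells, 25% (12.7 to 41.2). By granule level the counts were 9 of 97, 9 of 95 and 8 of 94 cells, but the replicates went opposite ways: 15.6% of granule-low against 6.98% of granule-high cells were above 0 in replicate 1, and 3.85% against 9.80% in replicate 2. Its mean was 34.4 and 19.4 TPM in granule-low cells of replicates 1 and 2, 4.58 and 11.5 TPM in granule-middle cells, 2.53 and 6.61 TPM in granule-high cells, and 6.10 and 13.6 TPM in other cells. The granule-low value rests on few cells: 1 cell gave 24.1% of it, and on plate 3 Ripk1 was listed at 0 in every granule-low cell. The 10 other cells above 0 all had at least 8 of the 10 monocyte markers. Ripk1 lies at chr13:34002363-34037147 on the plus strand (GRCm38) and shares 241 exon bases with Serpinb6a on the opposite strand, which averaged 44.1 TPM over all cells, and 511 bases with the processed pseudogene Gm17084. SmartSeq2 does not keep strand, so part of the Ripk1 value is uncertain.

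Birc3 encodes cIAP2, the ubiquitin ligase that modifies RIPK1. It was above 0 in 77 of 286 neutrophils and 18 of 40 other cells, and came next to Tnfrsf1a in mean TPM over all neutrophils, at 71.7 ± 8.80 TPM (SD, n = 2), a value whose replicates overlapped those of Tnfrsf1b at 60.9 ± 11.9 TPM. Its mean was 95.3 and 119 TPM in granule-low cells, 54.1 and 80.0 TPM in granule-middle, 45.7 and 33.9 TPM in granule-high and 97.5 and 100.5 TPM in other cells. Within granule-low cells the plates differed more than the replicates, with 21.1 and 173 TPM on plates 1 and 2 and 46.3 and 192 TPM on plates 3 and 4. Level and detection went opposite ways: 25 of 97 granule-low and 32 of 94 granule-high cells were above 0, with medians among them of 256 and 103 TPM.

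Cyld, which encodes the deubiquitinase that trims chains from RIPK1, was above 0 in 192 of 286 neutrophils, but almost always at very low values. Of those 192 cells 165 were under 10 TPM, and their median was 1 TPM. Its mean was 11.9 and 10.9 TPM in granule-low, 4.42 and 18.4 TPM in granule-middle and 6.72 and 6.91 TPM in granule-high neutrophils, and 27.1 and 39.1 TPM in other cells. The few cells of at least 10 TPM, 27 neutrophils and 9 other cells, therefore set these means. Tbk1, the kinase that phosphorylates both RIPK1 and optineurin, was above 0 in 52 neutrophils and 10 other cells. Its granule-low mean was 1.40 TPM in replicate 1 and 44.1 TPM in replicate 2, and its granule-middle mean 41.7 and 7.10 TPM. The replicates thus disagreed more than the classes, while the granule-high means were 35.5 and 19.5 TPM and those of other cells 31.7 and 29.4 TPM.

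Casp8 encodes the protease that starts apoptosis and cleaves RIPK1 and RIPK3. It was above 0 in 30 of 286 neutrophils and 21 of 40 other cells. Within neutrophils it was above 0 in 3 of 97 granule-low, 5 of 95 granule-middle and 22 of 94 granule-high cells. Its mean was 7.98 and 0.0433 TPM in granule-low cells of replicates 1 and 2, 22.4 and 21.2 TPM in granule-middle, 32.4 and 58.8 TPM in granule-high, and 163 and 140.2 TPM in other cells. The order was thus the reverse of that of the TNF receptors among neutrophils, and each of the 4 plates of granule-high cells (20.3 to 59.1 TPM) lay above each of the granule-low plates (0 to 9.12 TPM). Of the 30 Casp8-positive neutrophils 7 were cycling, against 31 of all 286. Of the 21 other cells above 0, 20 had 3 or more monocyte markers.

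Cflar encodes FLIP, the partner that restrains caspase-8. It was above 0 in 236 neutrophils and 38 other cells, yet 161 of those neutrophils were under 10 TPM. At 10 TPM or more it was found in 13 of 97 granule-low, 18 of 95 granule-middle and 44 of 94 granule-high cells and in 10 of 40 other cells. Its mean was 11.04 and 28.6 TPM in granule-low cells, 37.0 and 19.0 TPM in granule-middle, 41.5 and 62.4 TPM in granule-high, and 43.0 and 21.6 TPM in other cells. A share of cells above 0 and a share above 10 TPM therefore give different pictures for Cflar and Cyld. For Tnfrsf1a, in contrast, 9 of 240 neutrophils above 0 were under 10 TPM. Cflar and Cyld have the longest annotated transcripts of the members (6572 and 8022 bases). Ripk1, next at 6472 bases, had 8 of 26 neutrophils above 0 under 10 TPM. The part of transcript length was not tested.

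**Figure D2:**
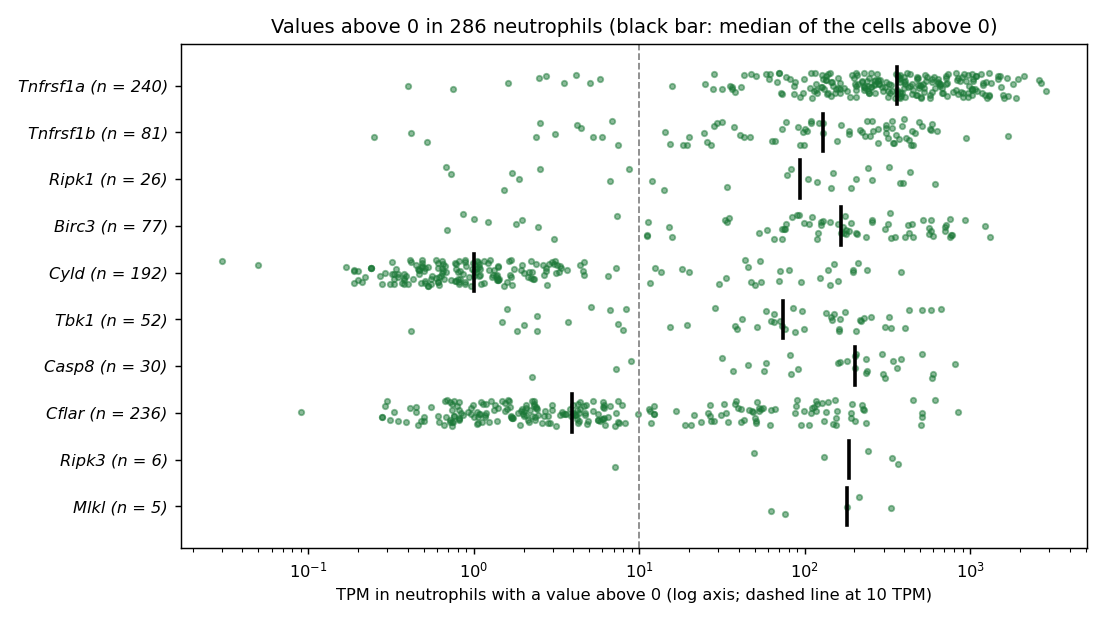
Each point is a neutrophil with a value above 0, with TPM on a log axis and a row for each gene; the black bars are medians and the dashed line is at 10 TPM. Cflar and Cyld pile up at low values, with medians of 3.94 and 1 TPM, while Tnfrsf1a has its median at 359.5 TPM.

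Ripk3, the kinase that drives necroptosis, was above 0 in 6 of 286 neutrophils, 2.10% (0.774 to 4.51), and in 8 of 40 other cells, 20% (9.05 to 35.6). The neutrophil values were 7.18, 240.1, 336 and 366 TPM in granule-high cells of replicate 1, 131 TPM in a granule-high cell of replicate 2 and 49.5 TPM in a granule-low cell of replicate 1. It was listed at 0 in all 95 granule-middle cells, which allows up to 3.16% of cells by the 3-cell limit (exact upper end 3.81%). The 8 other cells held 40.4, 98.2, 174 and 237 TPM in replicate 1 and 128, 166, 196 and 610.5 TPM in replicate 2. Both replicates of the other cells thus carried it, while among neutrophils 5 of the 6 cells were in replicate 1.

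Mlkl, the membrane-rupturing effector that RIPK3 phosphorylates, was above 0 in 5 of 286 neutrophils, 1.75% (0.570 to 4.03), and in 7 of 40 other cells, 17.5% (7.34 to 32.8). The neutrophils held 179.9 and 212 TPM (granule-high, replicate 1), 75.6 and 334 TPM (granule-high, replicate 2) and 62.4 TPM (granule-low, replicate 1). All 7 other cells were in replicate 1, with values from 95.7 to 561 TPM in 7 of 23 cells, against 0 of 17 cells in replicate 2, which allows up to 17.6%. Every other cell above 0 for Ripk3 or Mlkl had at least 8 of the 10 monocyte markers. Of the Ripk3-positive and Mlkl-positive neutrophils, 4 of 6 and 3 of 5 were cycling, and their median of genes above 0 was 2975 and 2683, against 1604.5 in all neutrophils.

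The kinases and effector were seldom seen together. Ripk1, Ripk3 and Mlkl were all above 0 in 1 neutrophil, a granule-low cell of replicate 1, and in 0 of 40 other cells, which allows up to 7.5%. That cell was the neutrophil nearest to the threshold (12512 TPM of S100a8 plus S100a9), was cycling and had 4686 genes above 0. It was also the only granule-low cell with Ripk3 or Mlkl, so the granule-low values of both rest on it, and a threshold of 30000 TPM puts it among the other cells. Ripk1 and Ripk3 were above 0 together in 1 neutrophil and 3 other cells, and Ripk3 and Mlkl in 2 neutrophils and 2 other cells. At least 1 of the 3 was above 0 in 33 neutrophils and in 18 other cells. The median cell had 3 of the 10 genes above 0 in each neutrophil class and 5.5 in other cells. With values this sparse, absence from a cell at this depth cannot be told apart from absence of the transcript.

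**Figure D3:**
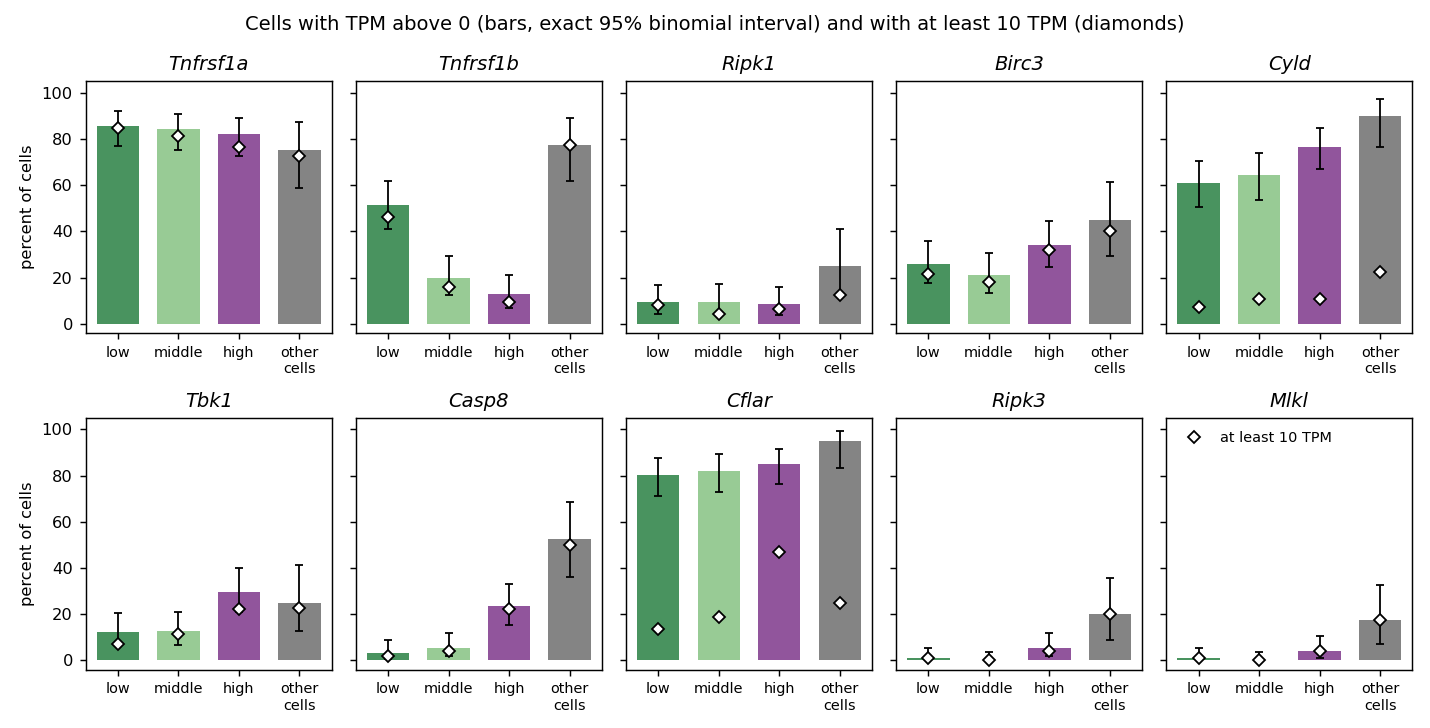
Bars give the percent of cells with TPM above 0 with exact 95% binomial intervals, and diamonds the percent with at least 10 TPM, for each gene in granule-low, granule-middle and granule-high neutrophils and other cells. Ripk3 and Mlkl are near 0 in neutrophils, Tnfrsf1a is high throughout, and the diamonds fall far below the bars for Cflar and Cyld.

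Granule-low were compared with granule-high neutrophils to ask which of these genes differ along the granule axis. On the level scale the 2 TNF receptors were called higher in granule-low cells and no member was called lower. Tnfrsf1a was 2.03 higher in log2(mean TPM + 1) (SE 0.233, 95% interval 1.46 to 2.6, limma adjusted p = 0.00346), a fold of 4.09, and higher in granule-low cells on 4 of 4 plates. Tnfrsf1b was 3.996 higher (SE 0.526, 2.72 to 5.27, limma adjusted p = 0.00553), also on 4 of 4 plates. The low-value filter asked for at least 5 TPM and at least 10% of cells above 0, both averaged over the 2 classes with equal weight. Of the 7 members that passed it, 2 were called higher and 0 lower at an adjusted p of 0.05. Among all 4317 genes tested, 12.6% were called higher and 5.42% lower. Casp8 passed this filter through granule-high cells, being under both limits in granule-low cells (4.01 TPM on average, 3.18% of cells), so it was bound to differ and its tests are a description. Ripk1, Ripk3 and Mlkl did not pass the filter. Across replicates alone, with no test, Tnfrsf1a was 3.85-fold and 4.38-fold and Tnfrsf1b 20.9-fold and 15.4-fold higher.

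The other 5 tested members did not pass. Casp8 was -3.87 on the log2 scale (SE 1.12, -6.6 to -1.13, limma adjusted p = 0.0642) and lower in granule-low cells on 4 of 4 plates. Birc3 was 1.41 (SE 0.451, limma adjusted p = 0.0826), Cflar -1.46 (SE 0.56, 0.13), Cyld 0.67 (SE 0.803, 0.606) and Tbk1 -1.39 (SE 1.25, 0.48), the brackets giving the SE and the limma adjusted p. The interval was -4.44 to 1.66 for Tbk1 and -1.28 to 2.62 for Cyld, so differences of several fold either way remain possible for both. Casp8, tested by way of granule-high cells as above, had an adjusted p under 0.05 in 6 of 15 alternatives with a test, among them a pseudocount of 10 TPM (-2.01, limma adjusted p = 0.0293) and averages per plate (-3.83, limma adjusted p = 0.036).

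Among all genes tested the median difference was 0.26, with 545 higher and 234 lower. With Rn45s, S100a8, S100a9 and the granule genes left out of the TPM total the median moved to -0.29 and the split to 339 higher and 458 lower, and Tnfrsf1a (1.49, limma adjusted p = 0.00967) and Tnfrsf1b (3.46, limma adjusted p = 0.0089) were still called, while Casp8 was -4.50 (limma adjusted p = 0.0438). With means of log values per cell the split was 405 higher and 1864 lower. In 21 granule-low and 71 granule-high cells with 1500 to 2500 genes above 0, Tnfrsf1a was 1.32 (limma adjusted p = 0.11) and Tnfrsf1b 3.44 (limma adjusted p = 0.343), and no member was called. With no filter on low values, 0 genes passed, and the limma adjusted p was 0.151 for Tnfrsf1a and 0.17 for Tnfrsf1b. Without cycling cells they were 1.82 (limma adjusted p = 0.00641) and 5.03 (limma adjusted p = 0.00654).

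**Figure D4:**
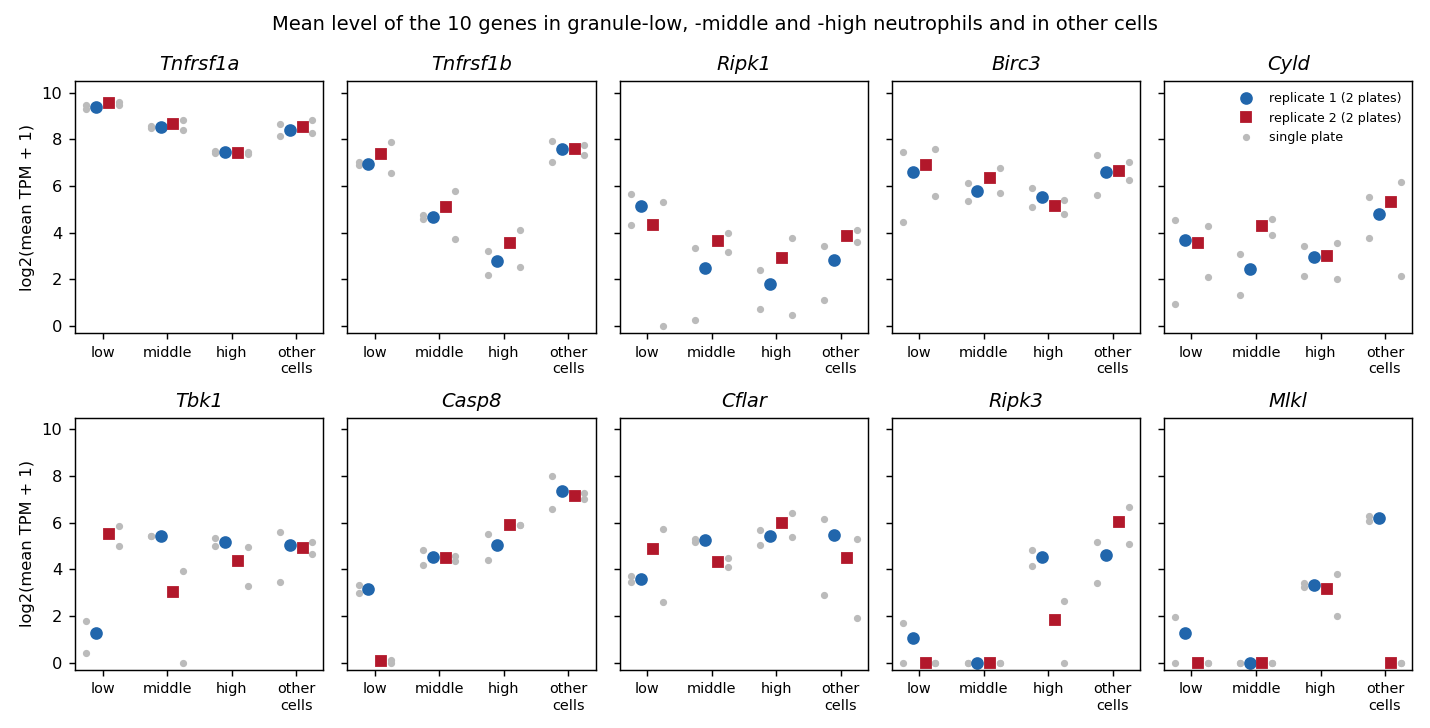
Each panel is a gene, with log2(mean TPM + 1) on the vertical axis for granule-low, granule-middle and granule-high neutrophils and other cells; circles and squares are replicates 1 and 2, each the mean over the cells of 2 plates, and grey dots single plates. Tnfrsf1a and Tnfrsf1b step down and Casp8 steps up from low to high in both replicates, while the replicates of Tbk1 lie apart.

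In detection, the percent of cells above 0, Tnfrsf1b was 39.0 points higher in granule-low than in granule-high cells (SE 6.1, limma adjusted p = 4.58e-06), with 55.6% and 48.1% of granule-low cells of replicates 1 and 2 above 0 against 14.0% and 11.8% of granule-high cells. Casp8 fell by 20.6 points (4.44% and 1.92% against 27.9% and 19.6%; limma adjusted p = 0.000711), a gene that entered through the class where it is high. With no filter its limma adjusted p in detection was 0.000292. Tbk1 fell by 18.1 points (limma adjusted p = 0.00924) and Cyld fell by 16.5 points (limma adjusted p = 0.0159). Both rested more on replicate 1: without it, and with no test, Tbk1 was -10.1 and Cyld -7.16 points, and without replicate 2 they were -26.1 and -25.8 points. The Cyld call was kept in 7 of 13 alternatives with a test, and was lost with 2 classes (-9.63 points, limma adjusted p = 0.0742), 4 classes (-12.5 points, limma adjusted p = 0.15) and a neutrophil threshold of 30000 TPM (-17.1 points, limma adjusted p = 0.0537). Thus 1 member was called higher and 3 lower of 7, where 5.17% of all genes were called higher and 55.2% lower, with a median of -13.8 points: the 3 falls are no more than the background share, and the rise of Tnfrsf1b goes against it. When the granule score was first adjusted for the number of genes above 0, Tnfrsf1b alone remained called among the members tested, at 40.5 points (limma adjusted p = 1.13e-06). Casp8 did not pass the low-value filter there. Counting only cells of at least 10 TPM, Cflar fell by 33.4 points (limma adjusted p = 0.000172), and Cyld was at -3.35 points (limma adjusted p = 0.442). At that threshold 2069 of all 4317 genes were called lower and 304 higher, with a median of -10.8 points.

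Neutrophils were then compared with other cells. In level, Ripk3, Casp8 and Tnfrsf1b were lower in neutrophils, and none of the 9 members that passed the filter was higher. Casp8 was lower by 2.64 on the log2 scale (SE 0.561, 95% interval -3.82 to -1.45, limma adjusted p = 0.00216) and Tnfrsf1b by 1.65 (SE 0.454, -2.61 to -0.69, limma adjusted p = 0.012), each on 4 of 4 plates. Ripk3 was lower by 3.34 (SE 0.966, -5.43 to -1.26, limma adjusted p = 0.0194), also on 4 of 4 plates, from 7.62 and 0.843 TPM in neutrophils against 23.9 and 64.7 TPM in other cells. The value was -1.53 without replicate 2 and -5.16 without replicate 1, with no test possible on 1 replicate. In neutrophils Ripk3 was under both filter limits (4.23 TPM on average, 2.23% of cells) and was tested only through the other cells, where it is high. With no filter its limma adjusted p was 0.344. Thus 3 of 9 members were called lower and 0 higher, where 22.9% of all 5981 genes tested were called lower and 6.2% higher, with a median difference of -0.64. Since Ripk3, and Ripk1 by its share of cells, were tested through the other cells, this count is a description. Tnfrsf1a was 0.27 (SE 0.297, -0.36 to 0.89, limma adjusted p = 0.539) and Ripk1 0.49 (SE 0.856, -1.32 to 2.31, limma adjusted p = 0.704). With the abundant genes left out of the total the split of all genes moved from 371 higher and 1372 lower to 459 and 832, and Ripk3 was -2.85 (limma adjusted p = 0.0815).

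The Ripk3 call was also lost without the replicate block (-3.34, limma adjusted p = 0.0608) and with averages per plate (-3.19, limma adjusted p = 0.0541). The Tnfrsf1a comparison depended on 6 other cells of 1000 to 10000 TPM of S100a8 plus S100a9. Of these 5 had at least 5 neutrophil markers and fewer than 3 monocyte markers, and 3 of them held 1257, 2301 and 3145 TPM of Tnfrsf1a. With the threshold at 1000 TPM, which moves them to the neutrophils, Tnfrsf1a was 1.05 higher in neutrophils (limma adjusted p = 0.0408).

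**Figure D5:**
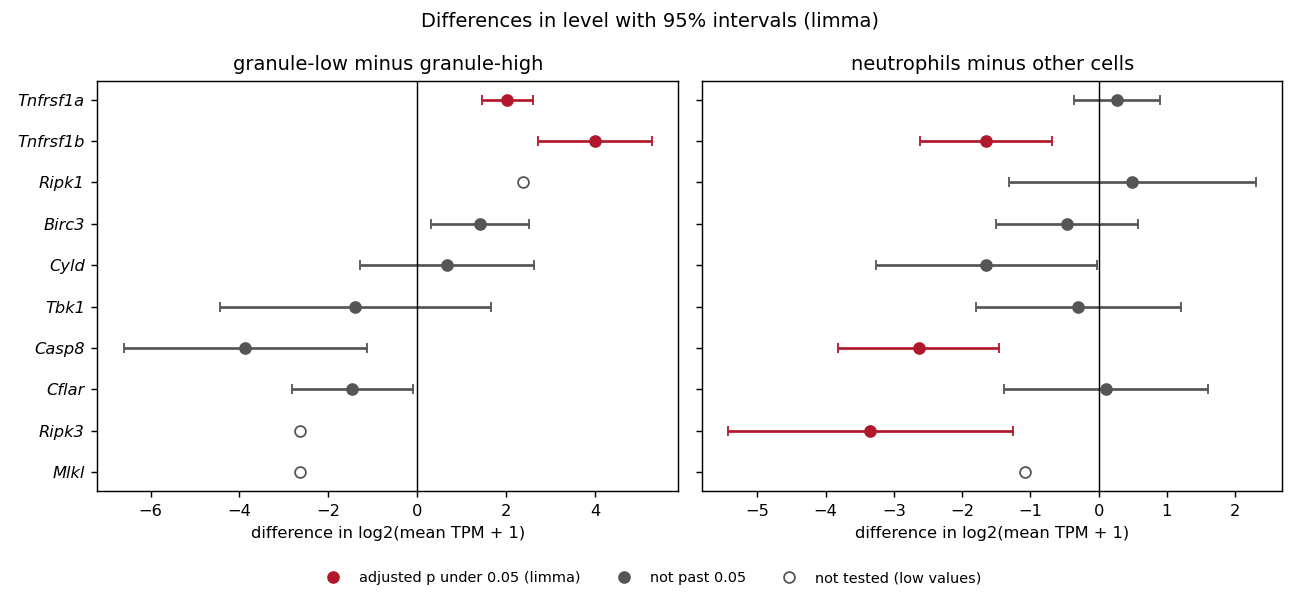
Points are differences in log2(mean TPM + 1) from limma with 95% intervals, for granule-low minus granule-high neutrophils on the left and neutrophils minus other cells on the right; filled red points have an adjusted p under 0.05 and open points did not pass the low-value filter and carry no interval. Tnfrsf1a and Tnfrsf1b lie right of 0 on the left side, and Tnfrsf1b, Casp8 and Ripk3 left of 0 on the right side.

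In detection 6 of 9 members were lower in neutrophils than in other cells and 0 higher, where 48.5% of all genes were called lower and 5.35% higher, with a median of -15.1 points. They were Tnfrsf1b (-49.7 points, limma adjusted p = 1.22e-10), Casp8 (-41.1 points, limma adjusted p = 2.1e-06), Cyld (-23.4 points, limma adjusted p = 2.55e-05), Birc3 (-19.0 points, limma adjusted p = 0.0338), Ripk3 (-18.2 points, limma adjusted p = 0.0112) and Cflar (-12.2 points, limma adjusted p = 0.0102). Ripk1 was -16.4 points (limma adjusted p = 0.0507) and Tnfrsf1a 8.96 points (limma adjusted p = 0.109). Birc3 was -10.1 points without replicate 2 and -27.8 points without replicate 1, with no test. The Birc3 call was kept in 4 of 10 alternatives with a test, and was lost without the replicate block (limma adjusted p = 0.0752), with no filter (limma adjusted p = 0.0971), with at least 1000 genes above 0 (limma adjusted p = 0.0537), with a threshold of 30000 TPM (-12.4 points, limma adjusted p = 0.211), at 10 TPM or more (-17.0 points, limma adjusted p = 0.0678) and in cells with 1500 to 2500 genes above 0 (-0.28 points). Ripk3 again entered through the other cells, and with no filter its limma adjusted p was 0.0385. Counting cells of at least 10 TPM, Tnfrsf1b, Casp8 and Ripk3 were called, where 2657 of all 5981 genes were called lower. There Cyld was not called (limma adjusted p = 0.107) and Cflar was 1.98 points (limma adjusted p = 0.843). The Cflar call was also lost with no filter (limma adjusted p = 0.0617).

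Around the members, lists of the TNF and death pathways were counted in the same fits on the level scale. Of 8 ligands and death receptors 5 were tested between granule-low and granule-high cells, and 3 rose, where 12.6% of all genes were called higher and 5.42% lower: both TNF receptors and Fas, a death receptor of the same family, from 45.0 and 27.5 TPM in granule-high to 235 and 161 TPM in granule-low cells (2.44, limma adjusted p = 0.0102). In detection, where 55.2% of all genes were called lower, Tnf, the ligand itself, fell by 26.7 points (limma adjusted p = 0.000348). It was at -0.15 in level. Tnf was above 0 in 13.3% and 5.77% of granule-low cells, on average under the 10% limit, against 37.2% and 35.3% of granule-high cells. It thus passed the filter through granule-high cells, and its detection call is a description. Of 6 tested of 10 genes of the receptor complex limma called 0 (2 at an unadjusted p under 0.05), and its most abundant gene outside the members, Rbck1, a subunit of the linear ubiquitin ligase, was 0.27 (92.8 and 57.4 against 57.8 and 63.4 TPM). Of 8 tested of 13 TAK1, IKK and TBK1 kinases and partners it called 0 (1 unadjusted), with Ikbkb, an IKK subunit, at 0.37. Among 6 tested of 8 deubiquitinases and partners, Tnfaip3, which encodes the RIPK1-editing enzyme A20, rose (1.61, limma adjusted p = 0.0369). Of 7 tested of 9 genes around caspase-8, Bid, whose product caspase-8 cleaves, rose from 53.6 and 26.4 to 233 and 152 TPM (2.29, limma adjusted p = 0.0125). Of 4 tested of 11 necroptosis genes, Flot2, a flotillin of membrane repair, was lower by 1.97 (limma adjusted p = 0.0186).

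Between neutrophils and other cells, 22.9% of all genes tested were called lower in level and 6.2% higher. TNF-complex gene Traf5 was lower (-2.94, limma adjusted p = 0.0135) among 9 tested. Casp6, a further caspase, was lower (-2.98, limma adjusted p = 0.00807) among 8 tested around caspase-8. Of 8 tested necroptosis genes, Ripk3, Ticam1, the adaptor that brings RIPK3 to Toll-like receptors (-3.19, limma adjusted p = 0.011), and Pgam5 (-2.96, limma adjusted p = 0.011) were lower. Traf5, Casp6, Ticam1 and Pgam5 were each above 0 in under 5% of neutrophils of either replicate, so like Ripk3 they passed the filter only through the other cells, where they are high (26.1% and 23.5% of other cells for Traf5), and their calls are a description. Flot1, the partner of Flot2, was higher in neutrophils at 397 and 473 TPM against 104 and 139 TPM (1.84, limma adjusted p = 0.00102). Of 10 kinases and 6 deubiquitinases tested limma called 0 (2 and 2 at an unadjusted p under 0.05). The most abundant gene of each, Ikbkb and Tax1bp1, gave -1.26 and -0.12. The medians over these lists were 0.27 (ligands and death receptors), -0.80 (receptor complex), -0.57 (kinases), -0.21 (deubiquitinases), -0.45 (caspase-8) and -0.83 (necroptosis), against -0.64 for all genes.

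Genes with the pattern most like Ripk1, Ripk3 and Mlkl were sought over 16 averages (4 classes on 4 plates) among 4148 genes. Spearman's rho was 0.82 for Zfp710, 0.81 for Gm6654 and 0.77 for Cox19 with Ripk1. With Ripk3, at 0 in 8 of the averages, it was 0.91 for Lamtor2 and Fbxw2 and 0.90 for Fam96a. With Mlkl, at 0 in 9 averages, it was 0.88 for Hmgb2, 0.87 for Nuf2 and 0.79 for Cd81. The averages share plates and depth, and the values describe this likeness only.

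Within neutrophils of a plate, Spearman's rho between granule score and level ran from -0.48 to -0.28 for Tnfrsf1a and from -0.47 to -0.30 for Tnfrsf1b over the 4 plates, and from 0.24 to 0.31 for Casp8. With the number of genes above 0 the same genes gave -0.40 to -0.23, -0.33 to -0.14 and 0.27 to 0.41. Cells with fewer genes above 0 thus had more of both receptors and less Casp8 on every plate, as cells with less granule transcript did, and the 2 measures share cells and depth.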

How the data were processed

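The authors deposited TPM values for 23420 genes in 326 cells, of 384 labelled; the other 58 were not analysed here. Per the submitters' processing notes, RSEM and mm10 were used; for the aligner, versions and gene annotation, the sources used here name none. Because TPM sums to a fixed total per cell, abundant genes push down the rest, and a 0 may be a failed estimate.

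Cells with at least 500 genes above 0 were kept (0 removed), and no doublet caller was run. TPM was averaged over the cells of a class in each replicate, and log2(mean TPM + 1), or the percent of cells above 0, was compared in limma 3.58.1 under R 4.3.3 with trend and robust estimation. The replicate was a block, since both classes come from the same 2 samples, and p-values were adjusted by Benjamini-Hochberg over all genes tested, at 0.05. On this scale the change of low genes is understated. Tested genes had at least 5 TPM and at least 10% of cells above 0, both averaged over the 2 classes with equal weight. S100a8 and S100a9 were left out of both comparisons, and the 6 granule genes out of granule-low against granule-high. The fits have 1 residual degree of freedom and lean on the spread pooled over genes, so a p does not rest on a gene's own spread. Classes cut from the granule score are ranges and not cell types. Scripts were tested on simulated data.

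The members and the gene lists were chosen with earlier results of these data known. All 10 members are named; pathway genes are named where called in a level fit (at most 10 a fit by smallest p), and otherwise the most abundant gene of a list in neutrophils. The immediate early list was added after seeing the data. Chil3, Hbb-bs, Otulin and Gsdme were found as Chi3l3, Beta-s, Fam105b and Dfna5; Ly6g, Trac and Hbb-bt were not matched. Gene positions are from GENCODE on GRCm38, promoters from RefSeq (GRCm38.p6), with chromosome 18 left out. Alternatives changed the pseudocount, filter, averaging, total, block, cell filters, thresholds, score, class number, robust option and, chosen after seeing the data, the detection threshold of 10 TPM and a range of 1500 to 2500 genes above 0.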

Additional observations from a re-analysis of the deposited data

How the results depend on the processing

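In level, 779 of 4317 genes tested and 2 of 7 members tested were called between granule-low and granule-high neutrophils. Means of log2(TPM + 1) over cells called 2269 of the same 4317 genes and 5 of the 7 members. The score adjusted for genes above 0 called 409 genes, and 4 classes in place of 3 called 499 genes. Between neutrophils and other cells, 1743 of 5981 genes and 3 of 9 members tested were called. Means of log values called 3028 genes, and a neutrophil threshold of 30000 TPM called 919. With no filter on low values limma called 0 genes and 0 members in both level comparisons (1746 and 2313 genes at an unadjusted p under 0.05). In detection, 2606 of 4317 genes and 4 of 7 members tested were called between granule-low and granule-high cells. Without cycling cells 1731 of 3869 genes were called, and with the adjusted score 685 of 4013 genes and 1 member. Between neutrophils and other cells 6 of 9 members were called in detection and 3 when 10 TPM was required, where Cflar changed sign to 1.98 points. Of the 5981 genes tested, 2898 were called lower and 320 higher in detection, and 2657 lower and 316 higher when 10 TPM was required. In cells with 1500 to 2500 genes above 0, limma called 161 genes and 0 members in level between granule-low and granule-high cells. In that range it called 0 genes and 0 members in the other 3 comparisons (942 genes at an unadjusted p under 0.05 in detection between granule-low and granule-high cells, and 635 in level and 642 in detection between neutrophils and other cells), with 9 other cells left. There Cyld (3.83 points) and Tbk1 (2.29 points) changed sign in detection between granule-low and granule-high cells. The cause of these changes was not tested. Nor was the part of the fewer cells, or of the larger number of genes adjusted over with no filter.

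Tnfrsf1a and Tnfrsf1b were each called in level between granule-low and granule-high cells in 14 of 16 alternatives with a test. The fit without the replicate block called 826, 2474, 1395 and 2344 genes for low against high in level and in detection, then neutrophils against others in level and in detection, and Ripk3 in level between neutrophils and other cells was -3.34 (limma adjusted p = 0.0608). Leaving out a replicate leaves no residual degrees of freedom, so these are values with no test. For granule-low against granule-high cells the level was then 1.94 to 2.12 for Tnfrsf1a, 3.82 to 4.17 for Tnfrsf1b, -5.84 to -1.90 for Casp8 and -3.92 to 1.14 for Tbk1. For neutrophils against other cells it was -5.16 to -1.53 for Ripk3, -2.92 to -2.36 for Casp8 and -1.86 to -1.44 for Tnfrsf1b. TPM keeps no depth, so the precision of a single cell's value is unknown, and 2 replicates limit that of the class averages.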

Other observations

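A further way to lytic death, pyroptosis, was counted from a list of 7 genes, all of which passed the filter between granule-low and granule-high neutrophils, and 3 rose in level in granule-low cells, where 12.6% of all genes tested were called higher and 5.42% lower. Nlrp3, the sensor of the NLRP3 inflammasome, was at 224 and 314 TPM in granule-low cells of replicates 1 and 2 and at 0.151 and 17.5 TPM in granule-high cells (5.85 in log2(mean TPM + 1), SE 0.887, limma adjusted p = 0.00922). Only 4.65% and 7.84% of granule-high cells held it above 0, so it passed the filter only through granule-low cells (80% and 71.2%), where it is high, and its call is a description. Ninj1, which encodes the protein that ruptures the membrane of dying cells downstream of several death pathways, was at 661 and 767 TPM against 56.3 and 38.5 TPM (3.91, SE 0.33, limma adjusted p = 0.00111). Gsdmd, the pore-forming gasdermin D, was at 256 and 349 TPM against 92.9 and 116 TPM (1.51, SE 0.299, limma adjusted p = 0.0202). All 3 were higher in granule-low cells on 4 of 4 plates, and 0 of the 7 genes were called lower in level. In detection, where 55.2% of all genes were called lower, Nlrp3 and Ninj1 rose and Casp1 (-11.3 points, limma adjusted p = 0.0341), Pycard (-27.1 points, limma adjusted p = 0.000175) and Gsdme (-30.4 points, limma adjusted p = 0.000153) fell. Casp1 and Pycard were each above 0 in only 6.67% and 5.77% of granule-low cells. They passed the filter only through granule-high cells, so their calls, like that of Nlrp3, are a description.

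Between neutrophils and other cells all 7 genes were tested in level, and 2 were called lower and 1 higher. Of all genes tested there, 22.9% were called lower and 6.2% higher. Casp1 and Pycard, the inflammasome protease and its adaptor, were lower in neutrophils: Pycard was at 31.4 and 26.2 TPM against 118 and 111 TPM (-1.96, limma adjusted p = 0.0157) and Casp1 at 55.8 and 59.0 against 167 and 154 TPM (-1.47, limma adjusted p = 0.0269). Gsdme, a gasdermin cleaved by caspase-3, was higher in neutrophils, at 158 and 187 TPM against 10.1 and 2.60 TPM (4.78, limma adjusted p = 0.000145), and passed the filter only through neutrophils, being above 0 in 8.70% and 5.88% of other cells.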
